A study of Mus musculus with 47 samples.

Results

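RNA levels were compared between mouse lymphoma cultures that carried an inducible Suv39h1 and were treated with Adriamycin plus 4-hydroxytamoxifen (ADR 4OHT) and the same cultures treated with Adriamycin alone (ADR). The 6 arrays compared were all those whose genotype label is Suv39h1- plus Suv39h1ER and whose treatment label is either of these, out of 47 arrays in the series. Arrays were paired by the culture name in their titles, which gave 3 pairs, SuvER-4146, SuvER-4936 and SuvER-5043. A native (untreated) array of each culture served for orientation, and 14 WT and 5 Suv39h1- lymphomas, each measured under ADR and native, entered the same fit.

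All cells were primary B cell lymphomas of Eµ-myc mice, in which the immunoglobulin heavy chain enhancer drives a Myc transgene in B cells. Per the labels, every culture, controls included, was also transduced with a retrovirus carrying Bcl2, an inhibitor of apoptosis, put under puromycin selection (48 h), and kept on a feeder layer of irradiated (20 Gy) NIH 3T3 cells, a mouse fibroblast line. Adriamycin (doxorubicin), a topoisomerase poison that breaks DNA, was given at 0.05 µg/ml for 5 days. The dose and duration of 4OHT are not given in the sources used here. The labels call the 3 ADR 4OHT arrays senescent, and the 3 ADR and 3 native arrays of these cultures non-senescent.

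Suv39h1 trimethylates histone H3 at lysine 9, a mark bound by HP1 proteins in silenced chromatin. In oncogene- or drug-induced senescence this mark is known for silencing of E2F target genes, the genes of S phase entry. A protein fused to the hormone-binding domain of the estrogen receptor is held inactive by chaperones until a ligand such as 4OHT is added. No array of cells without the fusion under 4OHT was analysed here, so effects of the fusion and of the ligand itself cannot be told apart. Suv39h1 was not analysed here, so neither the deficiency nor the fusion was checked on the arrays.

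The values are log2 expression levels per gene, and a difference of 1 is a 2-fold change in level. Array medians lay between 4.37 and 4.40 under ADR 4OHT and between 4.34 and 4.35 under ADR, without overlap. Genes of B cell identity averaged 8.85, 8.56 and 8.62 under ADR 4OHT, against 8.62, 8.92 and 8.43 under ADR, in the order SuvER-4146, SuvER-4936, SuvER-5043, which is kept below. The B cell receptor gene Cd79b stood at 11.06, 10.46 and 10.50 under ADR 4OHT, against 10.29, 11.34 and 10.63 under ADR. Cd79a was dimmer, at 8.38, 7.52 and 7.64 under ADR 4OHT, against 8.02, 8.51 and 7.38 under ADR. Pax5 was dimmer still, at 5.22, 4.94 and 5.29 under ADR 4OHT, against 4.725, 5.07 and 4.91 under ADR. Lists of neutrophil, T cell, NK cell, erythroid and endothelial genes averaged between 3.66 and 4.86 in the ADR 4OHT arrays and between 3.68 and 5.26 in the ADR arrays.

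Of the 3 pairs, only the SuvER-5043 arrays matched each other over the 200 genes that best separated the 19 WT and Suv39h1- lymphomas. Over these genes, the ADR and native arrays of a lymphoma correlated at a median of 0.787 (0.595 to 0.950, n = 19), and arrays of different lymphomas at a median of −0.0728 (−0.578 to 0.859, n = 342). The ADR 4OHT array correlated with the ADR array at 0.0855 in SuvER-4146, −0.316 in SuvER-4936 and 0.843 in SuvER-5043. The 200 genes were chosen on the same 19 lymphomas, so the range for arrays of a lymphoma is not independent of that choice. A match here means only a correlation within that range, and 0.843 also lies within the range of different lymphomas.

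The ADR array of SuvER-4936 was nearest to the Suv39h1- lymphoma 4936 under ADR (0.737) and native (0.680). The ADR 4OHT and native arrays of SuvER-4936 were nearest to arrays of SuvER-5043 (0.874 and 0.796). The ADR 4OHT array of SuvER-5043 was in turn nearest to that of SuvER-4936, before the ADR array of its own culture. In SuvER-4146 the ADR array matched the native one (0.663), whereas the ADR 4OHT array correlated with no other array of the series above 0.349. The SuvER-5043 arrays and the WT lymphoma 5043, which shares their number, correlated at most at 0.262. Whether these arrays hold the culture their titles name was not tested otherwise. Each result is therefore given by culture, with SuvER-5043 as the only pair that matches in this sense.

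**Figure D1:**
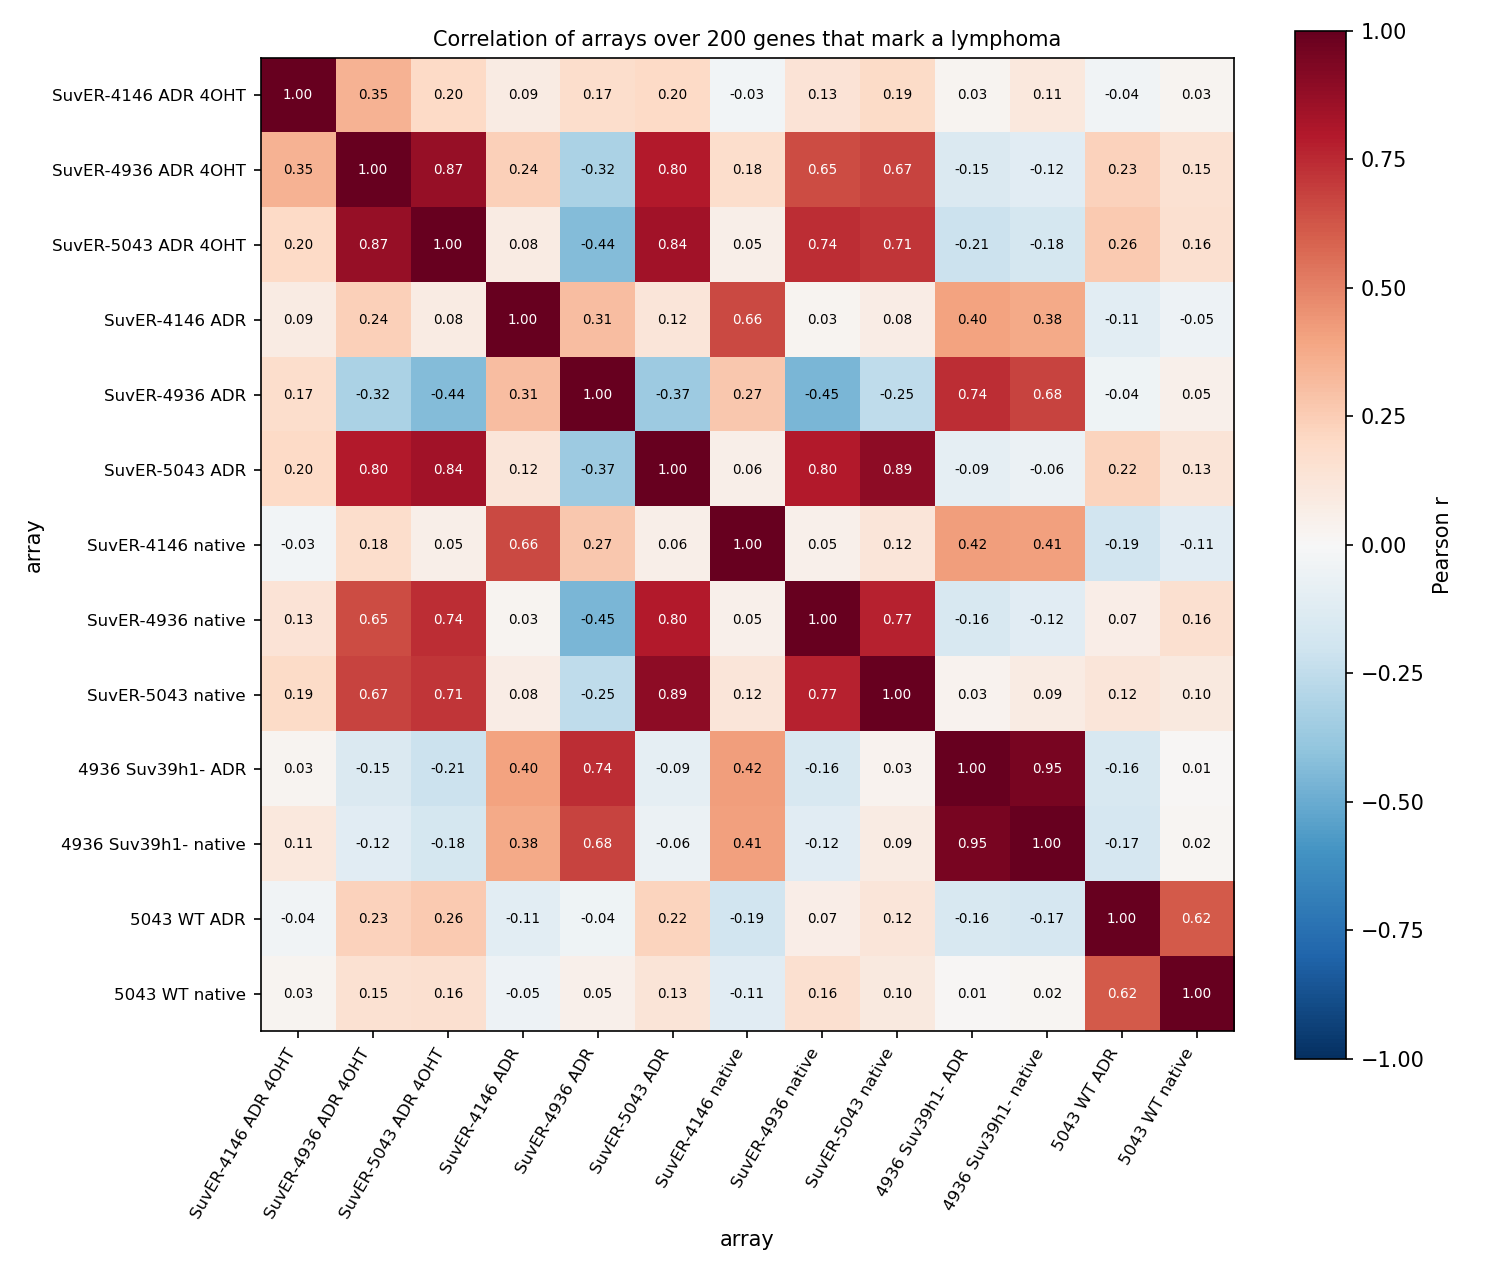
Pearson correlation between the 9 Suv39h1ER arrays and the arrays of the lymphomas that share their numbers, over 200 genes that mark a lymphoma, with both axes listing arrays. The ADR array of SuvER-4936 correlates with lymphoma 4936 at 0.737 and with its own ADR 4OHT array at −0.316.

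Genes that differ between lymphomas showed the same split. Xist, the RNA that silences an X chromosome, stood at 6.11, 6.27 and 6.19 under ADR 4OHT, against 9.06, 11.50 and 6.18 under ADR. The lambda light chain gene Iglv1 stood at 7.45, 11.04 and 11.25 under ADR 4OHT, against 7.06, 3.03 and 11.48 under ADR. Tmed6, a member of the p24 cargo receptor family, stood at 4.08, 2.34 and 2.50 under ADR 4OHT, against 3.74, 11.34 and 4.11 under ADR. The 2 groups differed by several log2 units in SuvER-4936 for all 3 genes, in SuvER-4146 for Xist, and in SuvER-5043 by under 2 units for each. These genes were chosen after their values were seen. Correspondingly, 151 genes differed by over 2 log2 units in SuvER-4146, 446 in SuvER-4936 and 24 in SuvER-5043, and the changes of the cultures correlated across 18194 genes at 0.104 to 0.214.

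Of 18194 genes, 26 (0.143%) differed between ADR 4OHT and ADR at an adjusted p under 0.05 in limma with Benjamini-Hochberg adjustment over all genes and the culture as a block. Of these, 8 rose (0.044%) and 18 fell (0.0989%). With arrays centred on their medians the split was 3 higher and 19 lower of 22 calls, with the mean over probe sets 14 higher and 12 lower of 26, and with the most variable probe set 16 higher and 22 lower of 38. For each of the 26 the groups did not overlap and the change ran the same way in all 3 cultures. Over all genes, the groups did not overlap for 20.2%, 14.7% were higher in all 3 cultures and 19.5% were lower in all 3. Every count of list members below is to be read beside these shares. At an unadjusted p under 0.05, 915 genes were higher (5.03%) and 1353 lower (7.44%).

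The calls lay close to the threshold, with adjusted p of 0.0175 to 0.0499, at least 0.04 for 20 of the 26. In limma without SuvER-4936 only Ddx4 passed, and without SuvER-4146 only Iqgap1 and 6430710C18Rik, whereas 56 genes passed without SuvER-5043, 15 of them among the 26. The SuvER-5043 pair alone gave 0 calls, with 676 genes at an unadjusted p under 0.05, and a fit of only the 6 arrays gave 0, with 1938. Without the culture block 16 genes passed, 8 of them among the 26. The n of 3 pairs given with each SE counts pairs by title, of which only SuvER-5043 matched. Each SE takes its spread from the fit of all arrays, WT and Suv39h1- lymphomas included, and not from the 3 pairs alone. It can therefore differ either way from the spread between the pairs. The SD of the 3 changes was 1.51 for 3830406C13Rik and 0.06 for Hus1, whose SEs were 0.42 and 0.21. Without the Suv39h1- lymphoma 1032, which enters only the estimate of the spread, 8 of the 26 passed. An exact sign-change test within 3 pairs cannot go below p = 0.25.

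The genes that rose under ADR 4OHT included both plexins called, receptors that take up semaphorin signals and act on the cytoskeleton. Plxnb2 stood at 9.38, 9.81 and 9.85 under ADR 4OHT, against 8.31, 8.91 and 9.06 under ADR. Each ADR 4OHT array lay above each ADR array, and the change was 0.92 ± 0.15 (SE, n = 3 pairs, adjusted p = 0.0202). Plxna3 stood at 7.09, 6.48 and 6.63 under ADR 4OHT, against 5.44, 5.46 and 6.03 under ADR, a change of 1.09 ± 0.22 (SE, n = 3 pairs, adjusted p = 0.0499). Native cells had 9.08, 9.14 and 9.12 for Plxnb2, just above the ADR range. For Plxna3 they had 5.36, 6.48 and 5.91, so in SuvER-4936 the native array stood at the level of the ADR 4OHT array.

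Eqtn, which encodes a protein of the sperm acrosome, had the largest rise among the called genes. Its levels were 6.21, 6.20 and 7.24 under ADR 4OHT, against 4.04, 3.43 and 3.54 under ADR, and native arrays stood at 3.33, 3.45 and 3.17. The ADR levels lay below the array medians, and signal over background was not assessed, so no fold is given. Thus the 3 ADR 4OHT arrays were well above all 6 others, with a change of 2.88 ± 0.55 (SE, n = 3 pairs, adjusted p = 0.0485). All 3 Eqtn probe sets rose, by 2.88, 3.93 and 2.40.

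Iqgap1, a scaffold that binds actin and calmodulin, stood at 10.49, 11.45 and 11.23 under ADR 4OHT, against 10.22, 9.85 and 10.09 under ADR. The change was 1.00 ± 0.19 (SE, n = 3 pairs, adjusted p = 0.0485) and was smallest in SuvER-4146, at 0.27. Piezo1, a mechanically gated cation channel, rose by 0.73 ± 0.15 (SE, n = 3 pairs, adjusted p = 0.0499), with changes of 0.52, 0.74 and 0.95 by culture. Ppp1r12c, a subunit that targets protein phosphatase 1 to myosin, rose by 0.76 ± 0.13 (SE, n = 3 pairs, adjusted p = 0.0214), although its other probe set was lower by −0.10. Atxn2, an RNA-binding protein of stress granules, rose by 0.73 ± 0.15 (SE, n = 3 pairs, adjusted p = 0.0499), and Nat14, a predicted acetyltransferase, by 0.74 ± 0.15 (SE, n = 3 pairs, adjusted p = 0.0499).

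**Figure D2:**
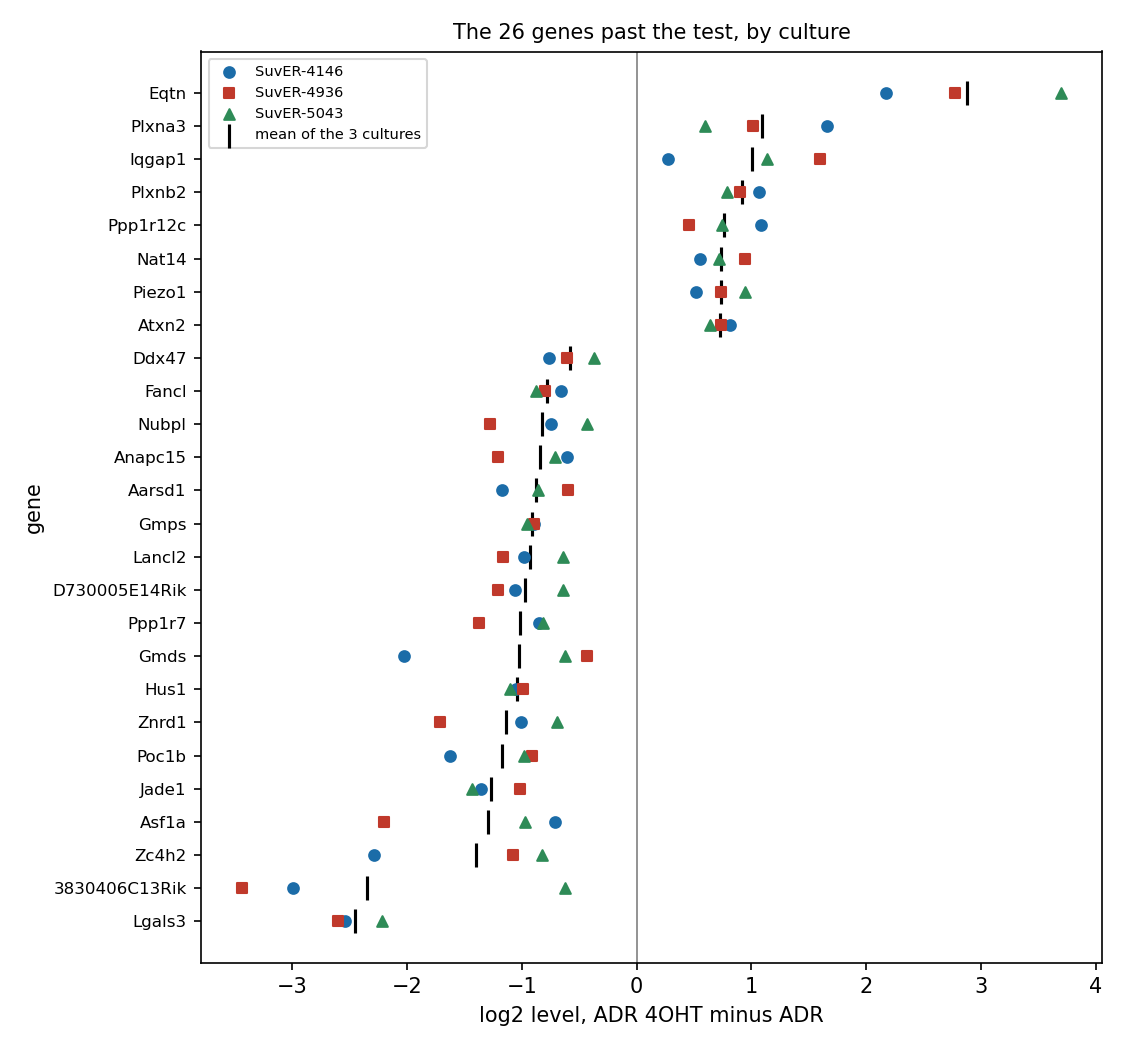
Log2 level under ADR 4OHT minus that under ADR for the 26 genes past the test (rows), with 1 symbol per culture and a bar at the mean of the 3 cultures. For each gene all 3 symbols lie on the same side of 0, and the mean bars of Eqtn and Lgals3 lie farthest out.

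Hus1, a subunit of the 9-1-1 clamp that signals DNA damage, stood at 6.91, 6.85 and 6.72 under ADR 4OHT, against 7.96, 7.84 and 7.82 under ADR. The 3 ADR 4OHT arrays were within 0.2 units of each other and about 1 unit below the ADR arrays, a change of −1.04 ± 0.21 (SE, n = 3 pairs, adjusted p = 0.0499). Asf1a, a chaperone that hands histones H3 and H4 to new chromatin, stood at 8.82, 7.60 and 8.31 under ADR 4OHT, against 9.53, 9.81 and 9.28 under ADR. It fell by 1.30 ± 0.26 (SE, n = 3 pairs, adjusted p = 0.0499), most in SuvER-4936, without which the change was −0.84, and its dim second probe set differed by 0.02.

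Jade1, a subunit of the HBO1 histone acetyltransferase complex, stood at 6.62, 6.79 and 6.11 under ADR 4OHT, against 7.97, 7.80 and 7.54 under ADR, a change of −1.27 ± 0.26 (SE, n = 3 pairs, adjusted p = 0.0499). Poc1b, a centriole protein, had the same order of groups, with 4.56, 4.84 and 4.74 under ADR 4OHT, against 6.19, 5.74 and 5.72 under ADR. Its change was −1.17 ± 0.19 (SE, n = 3 pairs, adjusted p = 0.0175), but its second probe set, of similar brightness, changed by −0.20 only. Znrd1, a subunit of RNA polymerase I, had the smallest p of all genes (1.1e-06) and stood at 7.40, 7.25 and 7.40 under ADR 4OHT, against 8.41, 8.96 and 8.09 under ADR. In native cells Znrd1 was at 8.15, 7.99 and 8.09, above the ADR 4OHT array of each culture, and in SuvER-4936 well below the ADR array.

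Ppp1r7, a regulator of protein phosphatase 1 in mitosis, fell by 1.01 ± 0.20 (SE, n = 3 pairs, adjusted p = 0.0499) and Gmds, the first enzyme of GDP-fucose synthesis, changed by −1.02 ± 0.21 (SE, n = 3 pairs, adjusted p = 0.0499). Gmds changed by −2.03, −0.43 and −0.62 in the 3 cultures, and by −0.52 without SuvER-4146 (adjusted p = 0.371, limma). Zc4h2, a zinc finger protein, fell by 1.39 ± 0.29 (SE, n = 3 pairs, adjusted p = 0.0499). The uncharacterised 3830406C13Rik changed by −2.35 ± 0.42 (SE, n = 3 pairs, adjusted p = 0.0293), but by −2.99, −3.44 and −0.62 in the 3 cultures, so the matched SuvER-5043 pair showed the smallest change. The other 8 genes that fell changed by −0.58 to −0.97. They are Fancl, the ubiquitin ligase of the Fanconi pathway, Gmps, which makes GMP, Anapc15, a subunit of the anaphase-promoting complex, Ddx47, Nubpl, Aarsd1, Lancl2 and D730005E14Rik, named here after their values were seen.

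Lgals3 encodes galectin-3, a sugar-binding protein made by macrophages, fibroblasts and many activated cells, and had the largest fall among the called genes. It stood at 7.33, 7.70 and 5.63 under ADR 4OHT, against 9.87, 10.30 and 7.85 under ADR, and at 5.47, 5.05 and 5.46 in native cells. The fall was similar in each culture, and the change was −2.45 ± 0.47 (SE, n = 3 pairs, adjusted p = 0.0485), 5.47-fold. Levels under ADR 4OHT still lay above the native level in each culture.

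Fibroblast genes, which mark the feeder cells, were lower with Lgals3 in SuvER-4146 and SuvER-4936, and less so in SuvER-5043. The collagen gene Col1a2 stood at 4.66, 6.56 and 4.85 under ADR 4OHT, against 8.29, 9.43 and 6.30 under ADR and at 4.68, 4.13 and 4.14 in native cells. The 35 measured fibroblast genes averaged 4.60, 5.05 and 4.60 under ADR 4OHT, against 5.41, 5.86 and 4.80 under ADR. None was called, 18 of 35 were lower in all 3 cultures and their median change was −0.38, beside −0.02 over all genes. Their mean changes were −0.80, −0.81 and −0.21, and in SuvER-5043, where Lgals3 fell by 2.22, 20 were lower and 15 higher. The collagens Col1a2 and Col3a1 differed by −2.65 (adjusted p = 0.222) and −1.83 (adjusted p = 0.239), and Cald1, an actin-binding protein, by −1.38 (adjusted p = 0.315). Macrophage and monocyte genes averaged 6.72, 6.23 and 6.57 under ADR 4OHT, against 6.27, 7.58 and 6.34 under ADR, so their change ran down in SuvER-4936 only. The part of feeder or other cells in the Lgals3 change was not tested, and fewer such cells and less RNA per cell cannot be told apart in bulk samples.

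**Figure D3:**
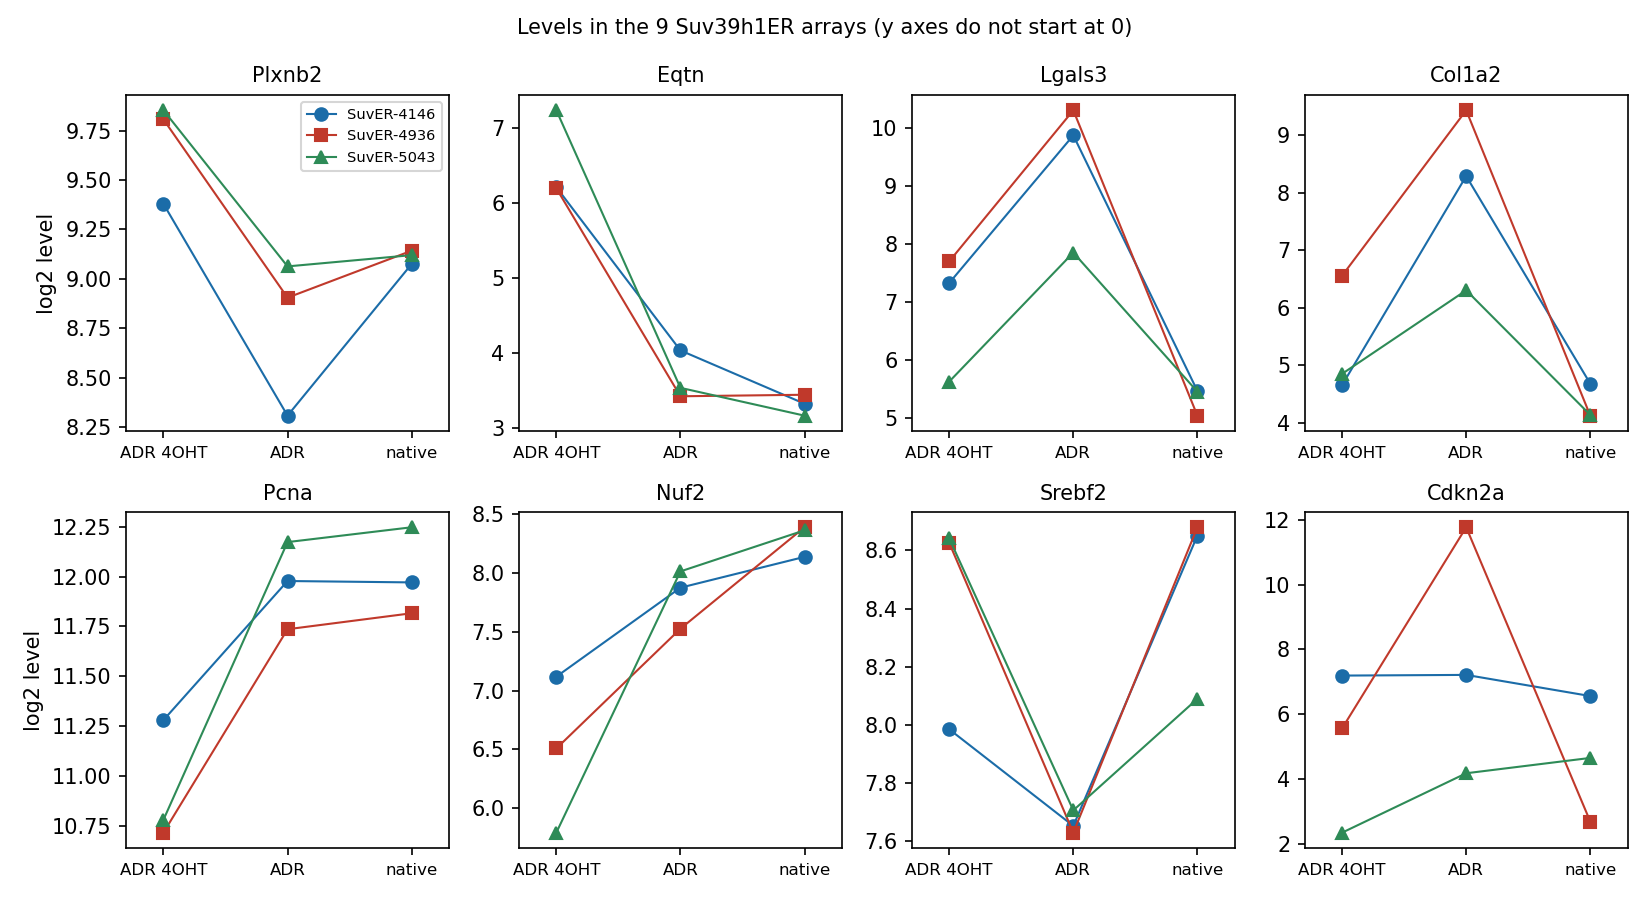
Log2 level of 8 genes in the ADR 4OHT, ADR and native arrays, 1 line per culture, on y axes that do not start at 0. Eqtn is high only in the 3 ADR 4OHT arrays, Lgals3 and Col1a2 are highest under ADR in each culture, and Cdkn2a reaches 11.76 only in the ADR array of SuvER-4936.

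Genes of DNA replication were lower under ADR 4OHT, but none passed the test: 29 of 39 measured members were lower in all 3 cultures and none was higher, beside 19.5% and 14.7% of all genes. Their median change was −0.66, beside −0.02 over all genes, and their mean changes by culture were −0.31, −0.55 and −1.27. Pcna, the sliding clamp of DNA polymerases, stood at 11.28, 10.72 and 10.78 under ADR 4OHT, against 11.98, 11.74 and 12.17 under ADR. The groups did not overlap and the change was −1.04 ± 0.26 (SE, n = 3 pairs, adjusted p = 0.0852). Gins4, a subunit of the replicative helicase, differed by −0.82 ± 0.19 (SE, n = 3 pairs, adjusted p = 0.0679), and Tk1, the thymidine kinase of S phase, by −1.38 ± 0.40 (SE, n = 3 pairs, adjusted p = 0.152). In Tk1 the changes by culture were −0.94, −1.02 and −2.19.

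Of 28 E2F and CDK regulators of S phase entry none was called, 12 were lower in all 3 cultures and none was higher, with a median change of −0.32 and mean changes of −0.48, −0.14 and −0.62. Ccne1, the cyclin that activates CDK2 at S phase entry, stood at 7.71, 7.30 and 7.18 under ADR 4OHT, against 8.42, 8.24 and 8.38 under ADR, without overlap, and differed by −0.95 ± 0.25 (SE, n = 3 pairs, adjusted p = 0.109). Mybl2, a transcription factor of proliferating cells, differed by −0.997 (adjusted p = 0.198) and Rbl1, a pocket protein that binds E2F4, by −1.02 (adjusted p = 0.185), with 2 of 4 Rbl1 probe sets of the other sign.

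Mitosis genes were lower in all 3 cultures for 32 of 42 members, with a median of −0.78, none called and mean changes of −0.12, −0.70 and −1.41. Nuf2, a kinetochore protein, stood at 7.12, 6.51 and 5.79 under ADR 4OHT, against 7.87, 7.53 and 8.01 under ADR. Its change was −1.33 ± 0.55 (SE, n = 3 pairs, adjusted p = 0.309) and was largest in SuvER-5043. Plk1, a mitotic kinase, stood at 8.43, 7.58 and 6.75 under ADR 4OHT, against 8.52, 8.47 and 8.40 under ADR, so that SuvER-4146 showed almost no difference and the groups overlapped. Ube2c, which loads ubiquitin for the anaphase-promoting complex, differed by −1.02 (adjusted p = 0.339). Mki67, the antigen used to stain cycling cells, differed by 0.47, −0.46 and −1.53, higher in 1 culture and lower in 2. Cyclin A2 (Ccna2) differed by −0.13, −0.76 and −1.58 and the helicase subunit Mcm2 by −0.33, −0.29 and −1.15.

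DNA repair genes were lower in all 3 cultures for 14 of 21 members, with a median of −0.62 and mean changes of −0.07, −0.53 and −1.10. Exo1, a nuclease of mismatch repair and end resection, differed by −1.18 ± 0.45 (SE, n = 3 pairs, adjusted p = 0.272). Fanci and Fancb, of the Fanconi pathway that repairs crosslinks, differed by −0.72 and −0.91 (adjusted p = 0.238 and 0.244). By culture, Fanci changed by −0.02, −0.85 and −1.31, and Fancb by −0.58, −0.96 and −1.18. Of 20 topoisomerase and damage signalling genes, 11 were lower in all 3 cultures and 1 was higher. Tdp1, which removes topoisomerase 1 adducts, differed by −0.63 (adjusted p = 0.152), and Wee1, which restrains entry into mitosis, by −0.72 (adjusted p = 0.175). Nbn, of the complex that senses double-strand breaks, differed by −1.001 (adjusted p = 0.179).

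For replication, mitosis and repair genes the change was smallest in SuvER-4146 and largest in the SuvER-5043 pair. Over SuvER-5043 alone, the medians were −1.19 for replication, −1.39 for mitosis and −1.22 for repair genes. In that culture, 39 of 39 replication genes and 41 of 42 mitosis genes were lower under ADR 4OHT. Hmgb2 and Lmnb1, a chromatin protein and a nuclear lamin whose loss is used as a mark of senescence, differed by −0.66, −0.91 and −1.61 and by −0.79, −0.59 and −0.88 in the 3 cultures. Neither passed the test (adjusted p = 0.258 and 0.494).

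**Figure D4:**
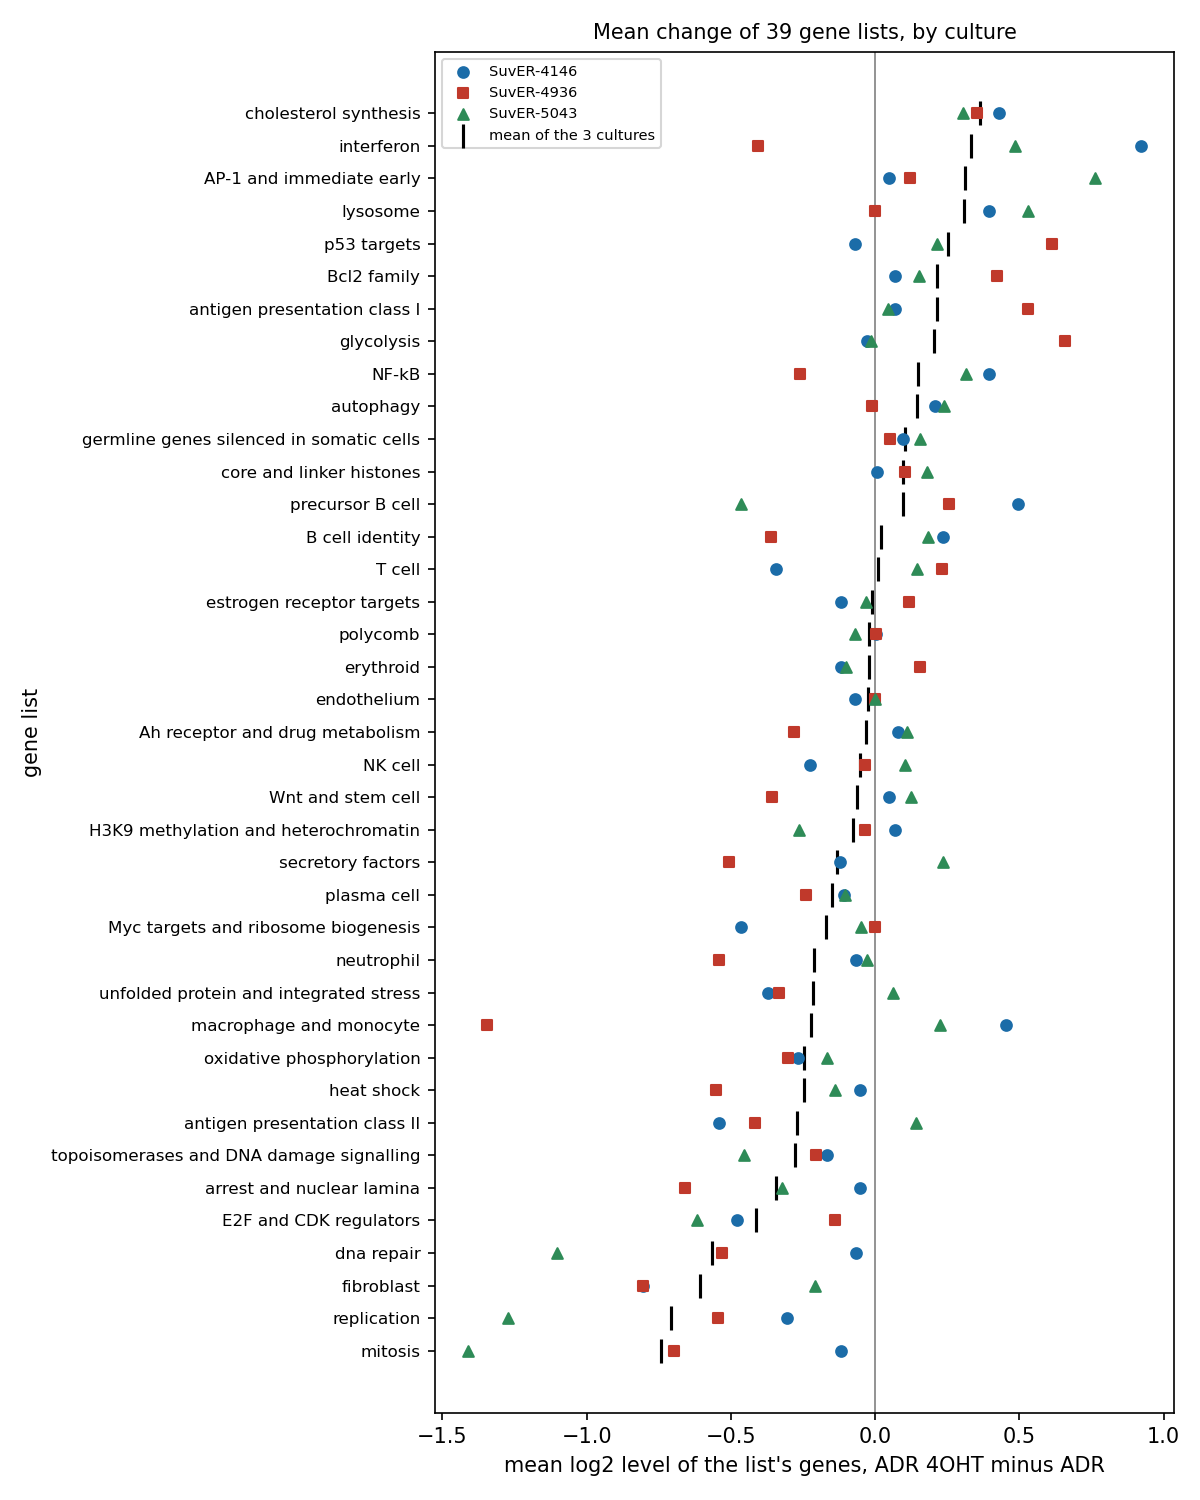
Mean log2 change (ADR 4OHT minus ADR) of each of 39 gene lists (rows), with 1 symbol per culture and a bar at the mean of the 3 cultures. Mitosis and replication genes have the lowest means, then fibroblast and repair genes. SuvER-5043 lies farthest left for mitosis, replication and repair but nearest to 0 for fibroblast genes, and cholesterol synthesis has the highest mean.

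The promoters of list members whose levels differed together are shown because E2F sites and the CHR element are the known control elements of S phase and mitotic genes, and the SRE that of cholesterol genes. RefSeq promoters (GRCm38.p6, 250 bases before to 50 after each start) were matched by symbol for 32 of 39 replication, 34 of 42 mitosis, 21 of 28 cholesterol and 24 of 26 called genes. Both strands were searched. The CHR element TTTGAA was in 75% of 36 mitosis promoters and 17.9% of all 32851 promoters. The E2F site TTTGGCGC was in 18.9% of 37 replication promoters and 0.514% of all, and the E2F site TTTCCCGC in 16.2% and 1.07%. Among the 34 promoters of called genes, 11.8% held TTTGAA, 2.94% TTTGGCGC and 5.88% TTTCCCGC. The promoters below belong to the list members of smallest p whose promoter holds the motif, which stands in capitals, for Plk1 the CHR element and the CCAAT box (CCAAT, in 37.4% of all promoters), for Pole2 and Mcm5 the E2F site on the other strand.
Plk1, chr7:122159185-122159484, plus strand: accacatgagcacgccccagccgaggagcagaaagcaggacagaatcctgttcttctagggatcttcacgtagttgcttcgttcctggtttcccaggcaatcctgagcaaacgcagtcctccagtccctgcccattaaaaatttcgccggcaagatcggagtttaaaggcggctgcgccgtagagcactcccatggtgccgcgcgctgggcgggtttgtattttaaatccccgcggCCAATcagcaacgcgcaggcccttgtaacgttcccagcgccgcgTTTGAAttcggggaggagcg
Pole2, chr12:69228141-69228440, minus strand: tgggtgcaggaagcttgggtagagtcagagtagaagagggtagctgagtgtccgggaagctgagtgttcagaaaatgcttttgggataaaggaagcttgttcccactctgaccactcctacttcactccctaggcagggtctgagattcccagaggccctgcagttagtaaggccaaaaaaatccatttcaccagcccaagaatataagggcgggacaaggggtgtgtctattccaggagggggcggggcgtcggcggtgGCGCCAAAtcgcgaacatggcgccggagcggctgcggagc
Mcm5, chr8:75109259-75109558, plus strand: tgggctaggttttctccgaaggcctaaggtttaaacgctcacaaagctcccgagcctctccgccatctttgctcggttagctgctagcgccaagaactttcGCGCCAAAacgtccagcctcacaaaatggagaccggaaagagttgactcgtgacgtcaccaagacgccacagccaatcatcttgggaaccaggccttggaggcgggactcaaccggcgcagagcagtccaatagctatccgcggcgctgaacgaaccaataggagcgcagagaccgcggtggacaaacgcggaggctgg

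Pole2, a subunit of DNA polymerase epsilon, stood at 7.40, 7.47 and 6.83 under ADR 4OHT, against 8.39, 8.11 and 8.46 under ADR, without overlap. Mcm5, a subunit of the replicative helicase, stood at 9.888, 9.446 and 8.996 under ADR 4OHT, against 10.53, 10.40 and 10.54 under ADR, again with each ADR 4OHT array below each ADR array. Their changes were −1.09 (adjusted p = 0.283) and −1.05 (adjusted p = 0.284). A motif match describes these letters and is not a measured site of binding.

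Cholesterol and fatty acid synthesis genes were higher under ADR 4OHT by a similar amount in each culture. None was called, but 17 of 28 measured members were higher in all 3 cultures and 1 was lower, beside 14.7% and 19.5% of all genes. The median change was 0.46 and the mean changes by culture were 0.43, 0.35 and 0.30. Srebf2, the transcription factor of sterol synthesis genes, stood at 7.99, 8.63 and 8.64 under ADR 4OHT, against 7.65, 7.63 and 7.71 under ADR, without overlap, and at 8.65, 8.68 and 8.09 in native cells. Its change was 0.75 ± 0.21 (SE, n = 3 pairs, adjusted p = 0.132).

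Scd2, a fatty acid desaturase, differed by 0.72 (adjusted p = 0.211) and Insig1, which retains the SREBP complex in the endoplasmic reticulum, by 0.93 (adjusted p = 0.324). Both changed least in SuvER-5043, by 0.25 and 0.32. Hmgcs1, the enzyme before HMG-CoA reductase, stood at 9.59, 10.23 and 10.21 under ADR 4OHT, against 9.10, 9.04 and 9.80 under ADR, with a change of 0.69 ± 0.44 (SE, n = 3 pairs, adjusted p = 0.567). Its promoter holds the SRE letters TCACNCCAC and is shown, for that reason, with the match in capitals. It was the only 1 of 28 cholesterol gene promoters with these letters (3.57%), which 1.24% of all promoters hold.
Hmgcs1, chr13:119690101-119690400, plus strand: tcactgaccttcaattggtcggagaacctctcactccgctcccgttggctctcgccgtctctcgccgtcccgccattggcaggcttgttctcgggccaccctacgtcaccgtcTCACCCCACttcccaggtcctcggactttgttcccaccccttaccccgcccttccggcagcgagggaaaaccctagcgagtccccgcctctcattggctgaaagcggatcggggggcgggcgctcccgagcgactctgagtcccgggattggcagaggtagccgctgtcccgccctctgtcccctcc

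Of 25 oxidative phosphorylation genes, 18 were lower in all 3 cultures, with a median of −0.27 and mean changes of −0.27, −0.30 and −0.17. Cyc1, cytochrome c1 of complex III, stood at 10.39, 10.22 and 10.09 under ADR 4OHT, against 10.93, 11.07 and 10.86 under ADR, without overlap, and differed by −0.72 ± 0.16 (SE, n = 3 pairs, adjusted p = 0.0634). Uqcrfs1, the iron-sulfur subunit of complex III, differed by −0.50 (adjusted p = 0.0766) and Ndufa9 of complex I by −0.55 (adjusted p = 0.0846).

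Of 30 lysosome genes, 14 were higher in all 3 cultures and 2 lower, with a median of 0.40 and mean changes of 0.40, −0.00 and 0.53. The lysosomal peptidase Tpp1 stood at 10.11, 10.22 and 10.61 under ADR 4OHT, against 9.35, 9.85 and 9.51 under ADR, with no overlap and a change of 0.75 ± 0.23 (SE, n = 3 pairs, adjusted p = 0.159). Gaa, the lysosomal glucosidase, differed by 0.63 (adjusted p = 0.164), the lysosomal calcium channel gene Mcoln1 by 0.55 (adjusted p = 0.168), and Glb1, the enzyme stained as senescence-associated galactosidase, by 0.40 (adjusted p = 0.497), higher in all 3 cultures. Ulk1, the kinase that starts autophagy, differed by 1.01 ± 0.24 (SE, n = 3 pairs, adjusted p = 0.0812), and Sqstm1, an autophagy receptor, by 0.81 (adjusted p = 0.189). Atg3, of the same autophagy list, ran the other way, by −1.35 (adjusted p = 0.159). Its changes by culture were −3.71, −0.34 and −0.02, and its dim second probe set differed by 0.04.

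Genes tied to H3K9 methylation lay in both directions. Of 35 members, 7 were higher (20%) and 11 lower (31.4%) in all 3 cultures, beside 14.7% and 19.5% of all genes. Their median was −0.12 and their mean changes were 0.07, −0.03 and −0.26. Suv39h2, the paralog of Suv39h1, stood at 6.15, 5.63 and 5.55 under ADR 4OHT, against 6.72, 6.65 and 6.60 under ADR, without overlap, and differed by −0.88 ± 0.29 (SE, n = 3 pairs, adjusted p = 0.185). Kdm3a and Kdm7a, which remove methyl groups from histone H3, differed by 0.92 and 0.85 (adjusted p = 0.184 and 0.186), with 2 of 5 Kdm7a probe sets of the other sign, and Cbx5, which encodes HP1 alpha, by −0.20 (adjusted p = 0.831).

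Germline genes, many of which are silent in body cells, had a median change of 0.04 over 28 members and mean changes of 0.10, 0.05 and 0.16. Ddx4, an RNA helicase of germ cells, stood at 5.09, 3.38 and 4.48 under ADR 4OHT, against 3.12, 3.44 and 2.38 under ADR. It was about 2 units higher in SuvER-4146 and SuvER-5043 and not in SuvER-4936, and differed by 1.33 ± 0.42 (SE, n = 3 pairs, adjusted p = 0.168), or by 2.03 without SuvER-4936 (adjusted p = 0.0342, limma). Sycp3, of the meiotic chromosome axis, differed by 0.49 (adjusted p = 0.129). Its levels, 2.86, 2.88 and 3.01 under ADR 4OHT, against 2.45, 2.40 and 2.44 under ADR, all lay below the array medians. So did those of Ddx4 under ADR, and signal over background was not assessed. Estrogen receptor target genes had a median of −0.07 over 20 members, with 3 higher (15%) and 3 lower (15%) in all 3 cultures, beside 14.7% and 19.5% of all genes. Whether these genes respond to 4OHT in such cells was not tested. Esr1, the estrogen receptor itself, stood at 4.39, 4.71 and 5.34 under ADR 4OHT, against 3.75, 2.69 and 5.10 under ADR, differed by 0.97 (adjusted p = 0.14), and 1 of its 3 probe sets ran the other way.

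Genes used as marks of senescence or damage did not pass the test. Cdkn1a, the p53 target that encodes p21, stood at 10.37, 11.77 and 11.84 under ADR 4OHT, against 10.64, 9.59 and 11.09 under ADR, and its change by culture was −0.27, 2.18 and 0.74. Of 32 p53 target genes, 6 were higher (18.8%) and 3 lower (9.38%) in all 3 cultures, beside 14.7% and 19.5% of all genes. Their median was 0.23, or −0.033 without SuvER-4936, and their mean changes were −0.07, 0.61 and 0.21. Trp53inp1, a p53-induced autophagy factor, differed by 0.93 (adjusted p = 0.263), or 0.60 without SuvER-4936, and Mdm2, the ligase that degrades p53, by 0.92 (adjusted p = 0.341), or 0.54 without SuvER-4936. Cdkn2a, which encodes p16 and p19Arf, stood at 7.20, 5.57 and 2.36 under ADR 4OHT, against 7.22, 11.76 and 4.19 under ADR, so its change of −2.68 (adjusted p = 0.243) came mainly from the SuvER-4936 pair, whose arrays did not match.

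Secretory factor genes had a median of −0.05, with 10 of 47 higher and 9 lower in all 3 cultures. Their mean changes were −0.12, −0.51 and 0.24. Il6, a cytokine of the senescence secretome, stood at 6.53, 6.17 and 7.36 under ADR 4OHT, against 5.95, 4.29 and 5.91 under ADR, without overlap, and differed by 1.30 ± 0.59 (SE, n = 3 pairs, adjusted p = 0.366). Cxcl3, a neutrophil chemokine, stood at 2.97, 1.98 and 2.13 under ADR 4OHT, against 2.92, 8.80 and 2.98 under ADR, high in 1 ADR array. Rela, a subunit of NF-kB, differed by 0.54 ± 0.14 (SE, n = 3 pairs, adjusted p = 0.0995), with changes of 0.73, 0.15 and 0.76 by culture. Interferon genes had mean changes of 0.92, −0.41 and 0.48, which opposed each other between cultures, and 9 of 33 were higher in all 3. Rsad2, an antiviral enzyme, differed by 1.39 (adjusted p = 0.376), and the interferon-induced Xaf1 and Ifi35 by 1.10 and 0.65 (adjusted p = 0.291 and 0.3), Xaf1 with 1 of 2 probe sets of the other sign. Each changed least in SuvER-4936, by 0.66, 0.46 and 0.29. Bcl2l11, the proapoptotic Bim, differed by 0.97 (adjusted p = 0.0921). The introduced genes Myc and Bcl2 differed by 0.44 and 0.60 (adjusted p = 0.675 and 0.644).

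The remaining 13 lists, none with a called member, had medians between −0.28 (unfolded protein and integrated stress) and 0.37 (antigen presentation class I). The arrest and nuclear lamina list had a median of −0.13, NF-kB of 0.21, autophagy of 0.15, the Bcl2 family of 0.12, B cell identity of 0.04, macrophages of −0.13, and interferon of 0.20. Neutrophil, T cell, NK cell, erythroid and endothelial lists had medians of −0.11, −0.04, 0.05, −0.01 and 0.03. The means of the T cell, NK cell and endothelial lists had the opposite sign of these medians. Of all 39 lists, 18 had a mean change of the same sign in all 3 cultures.

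A sign of RNA quality moved with the groups. The 3′ minus 5′ difference of the Actb control probe sets was 0.92, 0.88 and 0.90 under ADR 4OHT, against 0.61, 0.47 and 0.79 under ADR, without overlap. That of Gapdh was 0.34, 0.36 and 0.38 under ADR 4OHT, against 0.30, 0.47 and 0.26 under ADR, with overlap. Their part in the differences between groups was not tested.

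The comparison of WT with Suv39h1- lymphomas in their response to ADR asks about the endogenous gene, on other arrays of the same fit. It called 62 genes (0.341%), 34 higher and 28 lower, whereas arrays centred on their medians gave 27 higher and 125 lower, and quantile normalization 38 higher and 51 lower. Without the Suv39h1- lymphoma 1032 limma called 0, with 2936 genes at an unadjusted p under 0.05. Of the 26 genes called for 4OHT, 22 had a WT minus Suv39h1- response of the same sign, as did 55.8% of all genes. Lgals3 alone was called in both, with opposite signs. Over all genes the 2 sets of changes correlated at 0.117, as a description. The ADR array of SuvER-4936 correlated with the Suv39h1- lymphoma 4936 under ADR at 0.737 over the genes that mark a lymphoma. The fit treats them as separate cultures, so the 2 comparisons, and the test of their difference, may not be independent. The median WT minus Suv39h1- response was −0.97 for replication and −1.35 for mitosis genes, beside 4OHT changes of −0.66 and −0.78. For cholesterol synthesis the medians were −0.22 for WT minus Suv39h1- and 0.46 for 4OHT, and for fibroblast genes 1.64 and −0.38.

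The test of the difference between the 4OHT change and the WT minus Suv39h1- response called 1 gene (0.0055%). Lgals3 was higher in the WT than in the Suv39h1- response by 2.19 ± 0.42 (SE, adjusted p = 0.0312, limma) and lower under ADR 4OHT by 2.45. Its WT response to ADR was 2.06 and its Suv39h1- response −0.13. The fibroblast list had the same opposition in its medians, 1.64 in the WT minus Suv39h1- response and −0.38 for 4OHT.

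**Figure D5:**
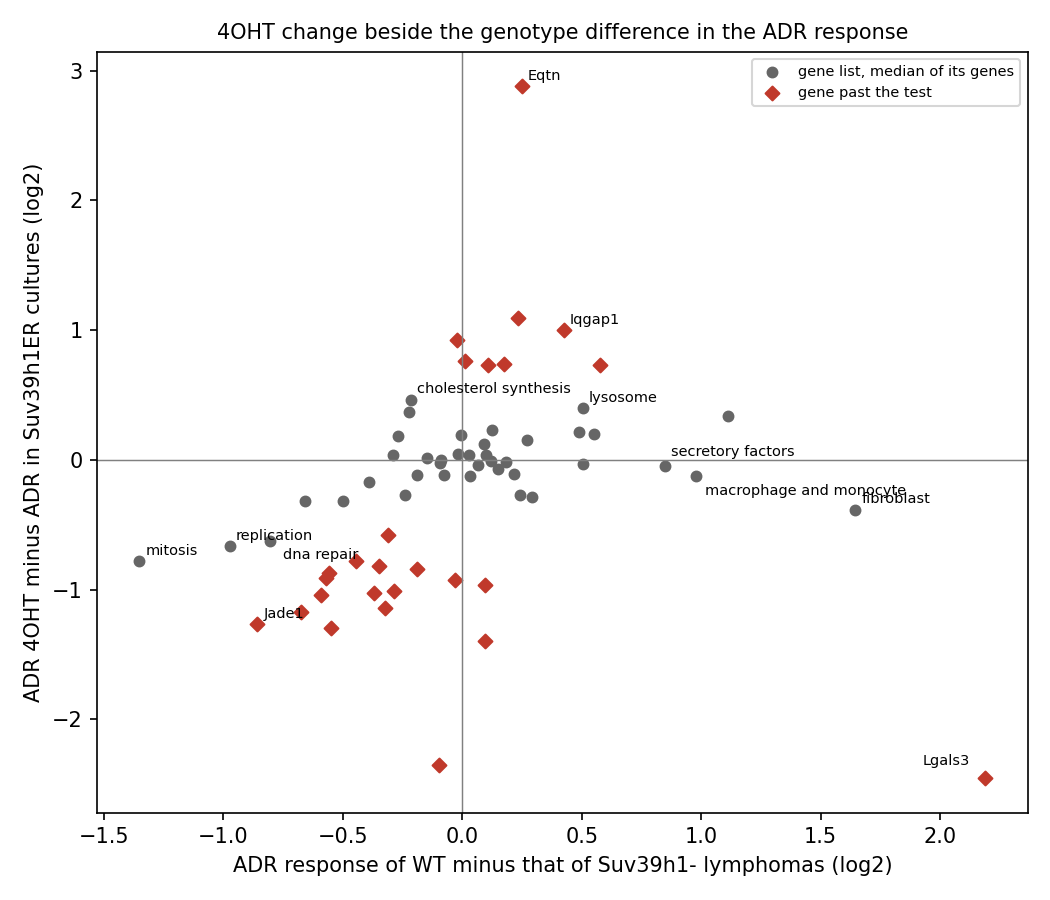
Log2 change under ADR 4OHT against ADR in the Suv39h1ER cultures (y axis) and WT minus Suv39h1- response to ADR (x axis), for the medians of 39 gene lists (circles) and the 26 called genes (diamonds). Lgals3 lies alone at the lower right, and mitosis and replication genes lie below 0 on both axes.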

How the data were processed

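Levels were measured on 47 Affymetrix mouse arrays of 22 cultures. The authors deposited log2 values for each probe set. The submitters' processing notes name RMA, oligo and R 3.5.0. Scan batches, and whether RMA ran on all arrays at once, are not given in the sources used here. Of 45101 probe sets, 34958 carry 1 gene symbol, 932 several and 9211 none here. The brightest probe set of each gene over all arrays was kept, without a filter on dim genes, giving 18194 genes. The number of arrays limits the precision.

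All 47 arrays were fitted with limma 3.58.1 in R 4.3.3 with a fixed effect for each of 22 cultures, 4 terms for treatment by genotype, 21 residual degrees of freedom, two-sided tests and Benjamini-Hochberg adjustment, calling genes at an adjusted p under 0.05. The pairing comes from the culture names in the titles. As a check, the deviations of the 2 arrays of a culture from their group means correlated at −0.271, −0.27 and 0.255 in SuvER-4146, SuvER-4936 and SuvER-5043. The titles name 3 separate cultures. The SEs and p-values take their spread from all 47 arrays of the fit, not from the 3 pairs alone, and measure only the spread between these samples. The fit was tested on simulated data with independent noise, in which each array belonged to its named culture. That test therefore cannot speak to arrays that do not match their culture.

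The comparison and the 39 gene lists (1013 entries, 915 measured) were chosen with earlier results of these data known. Lists were described by counts and medians without a test. Named were up to 10 rising and 10 falling called genes of largest change, the 3 members of smallest p of each list the text describes (not all are given) and Bcl2, Myc, Cdkn1a, Cdkn2a, Mki67, Lmnb1, Ccna2, Ccne1, Mcm2, Hmgb2, Cbx5, Suv39h2 and Glb1. Alternatives were the blocks, the arrays fitted, scaling, probe set choice, a filter on dim genes, the prior, array weights and leaving out cultures. The SuvER-5043 pair alone, and the fit without the SuvER-4936 ADR array, were chosen after seeing the data. Promoter sequences are from RefSeq.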

Additional observations from a re-analysis of the deposited data

Results flagged for a closer look

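Lgals3 differed between both comparisons, by a test of the difference in the limma fit of all arrays. The 4OHT change in the Suv39h1ER cultures minus the WT minus Suv39h1- response to ADR was −4.64 on the log2 scale (SE 0.63, adjusted p = 0.0023). In the Suv39h1ER cultures Lgals3 stood at 7.33, 7.70 and 5.63 under ADR 4OHT, against 9.87, 10.30 and 7.85 under ADR, lower in 3 of 3 pairs. The difference was −4.41 in the SuvER-5043 pair alone, where it missed the threshold (adjusted p = 0.281), and −4.57 to −4.76 with any 1 culture left out (adjusted p = 0.0025 to 0.0497).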

How the results depend on the processing

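The count of 26 genes called for ADR 4OHT against ADR was 16 without the replicate block (8 of them among the 26), 7 with an intensity trend and robust prior, 8 without Suv39h1- lymphoma 1032 and 222 with array weights, which held all 26. It was 0 in limma fits of only the 6 arrays compared (1938 genes at an unadjusted p under 0.05), of only the 9 Suv39h1ER arrays (2077), of the SuvER-5043 pair alone (676), and without the block and the SuvER-4936 ADR array (1256). Leaving out 1 culture gave 1 to 56 calls. With the other settings it was 22 to 39. The cause of these shifts was not tested, but fits of fewer arrays have fewer degrees of freedom. The 62 genes called for WT minus Suv39h1- were 152 with arrays centred on their medians, 27 with the most variable probe set, 129 over genes of a mean level of at least 6, 28 with the trend and robust prior, 0 without lymphoma 1032 (2936 at an unadjusted p under 0.05) and 12 with array weights. The difference of both, Lgals3 alone, gave 3 genes (with Srebf2 and Ovol1) without lymphoma 1032, 2 (with Srebf2) with array weights, 0 in the SuvER-5043 pair alone (558 at an unadjusted p under 0.05) and 1 to 7 with a culture left out.

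The medians of replication, mitosis, repair, oxidative phosphorylation, cholesterol synthesis and fibroblast genes kept their sign in all 96 values under 16 alternatives, whereas 19 of the other 33 lists changed sign at least once. Cholesterol synthesis was 0.35 with the mean over probe sets, 0.54 with array weights, 0.30 in SuvER-5043 alone and 0.38 to 0.50 with a culture left out. In SuvER-5043 alone, replication was −1.19, repair −1.22 and oxidative phosphorylation −0.19. Xaf1 reversed to −0.21 with the mean over probe sets and Kdm7a to −0.25 with the most variable probe set. Bcl2 reversed to −0.14 in SuvER-5043 alone, ranged over −0.0023 to 0.97 with a culture left out, and Mki67 over −0.99 to 9.6e-04. Of the 18 named called genes, 12 to 14 passed under the 2 rescalings and the 2 other probe set choices. Signal over background was not assessed.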
